A study of Mastomys natalensis with 4 samples.

Results

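Chromogranins, secretogranin II, prohormone-processing enzymes and general neuroendocrine markers were examined in gastric mucosa of the African rodent Mastomys natalensis. The set holds 9 of the 8251 genes that the array's annotation names: Chga, Chgb, Scg2, Cpe, Pcsk1, Ptprn, Uchl1, Ncam1 and Eno2. Every probe set whose only annotated symbol was one of these was taken, 14 in all. Total RNA was hybridised to mouse U74 arrays. The animals received loxtidine (loxitidine in the labels), a histamine H2 receptor blocker that suppresses gastric acid. There were 2 samples after 8 weeks, a stage labelled hyperplasia of enterochromaffin-like (ECL) cells, and 2 samples after 16 weeks, a stage labelled neoplasia of ECL cells. Every sample was drug-treated, so the comparison is between the 2 stages, and untreated mucosa was not analysed here. Treatment time and lesion stage differed together and cannot be told apart. Strain, sex and age are not given in the sources used here. Neither is whether a group's samples were separate animals, so the p-values reflect a spread between samples that may be technical. Each sample carries a lot label of its own, so lot and sample cannot be told apart.

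ECL cells store histamine in the acid-secreting part of the stomach and multiply when loss of acid raises the hormone gastrin. Like other endocrine cells they pack their products into dense-core granules. Granins are the acidic matrix proteins of these granules, convertases and carboxypeptidases trim peptide precursors inside them, and Uchl1, Ncam1 and Eno2 are cytoplasmic or surface proteins shared by endocrine cells and neurons, used as general markers of neuroendocrine tumours.

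The probes were designed on mouse sequence, so mismatches to the Mastomys transcript can lower a probe set's signal by an unknown amount, and values are compared only within a probe set. Median intensity ran from 15.4 to 19.2 across the arrays. Values below 12.15, the floor set from the arrays' dim values, were raised to it. Of the 14 probe sets 11 exceeded this floor on 2 or more arrays and were tested. These cover all 9 genes. Another probe set of Chgb and another of Cpe lay under the floor on every array, and another of Ncam1 exceeded it only in 16-week sample 2, at 18.5. Differences are log2 intensity at 16 weeks minus 8 weeks, with limma's standard error (SE) and 95% interval from n = 2 samples per group. The number of arrays limits the precision. No probe set in the whole table passed limma's test at a Benjamini-Hochberg adjusted p of 0.05 (0 of 7883, a background of 0%), while 1100 had an unadjusted p under 0.05. The smallest adjusted p was 0.301. No member therefore passed, and the values below are measured differences without a call.

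Of the 3 granins, Chga and Scg2 read higher at 16 weeks and Chgb read lower. Chromogranin A (Chga), a core protein of endocrine granules and a standard marker of neuroendocrine tumours, has 2 tested probe sets. At 8 weeks its brighter probe set (92422_at) read 141 and 242, and at 16 weeks 299 and 231. The groups overlapped, since 8-week sample 2 exceeded 16-week sample 2, and 8-week sample 1 was the low value. The difference was 0.51 ± 0.35 (SE), 1.42-fold, with an interval from -0.40 to 1.42 (limma adjusted p = 0.529). The second Chga probe set (162192_f_at) gave 42.2 and 70.6 at 8 weeks, then 142 and 93.7 at 16 weeks. Here the groups did not overlap, and the difference was 1.08 ± 0.38, 2.11-fold, with an interval from 0.11 to 2.05 (limma adjusted p = 0.343). Both probe sets put the samples of each group in the same order, with 8-week sample 1 lowest and 16-week sample 1 highest. A change in the number of cells of a type and a change in RNA per cell cannot be told apart in such tissue RNA. Without 8-week sample 1 the differences were 0.12 on the brighter probe set and 0.71 on the second, and without 8-week sample 2 they were 0.90 and 1.45.

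Secretogranin II (Scg2), a granin that is also cut into the peptide secretoneurin, gave 18.4 and 28.4 at 8 weeks, then 46.3 and 38.6 at 16 weeks. Both 16-week samples lay above both 8-week samples. The difference was 0.89 ± 0.31, 1.85-fold, with an interval from 0.09 to 1.69 (limma adjusted p = 0.345). Scg2 followed the same order of samples as the second Chga probe set, and it stayed between 0.57 and 1.20 with any one sample left out. Chromogranin B (Chgb), the related granule protein, gave 101 and 61.7 at 8 weeks, then 51.5 and 64.2 at 16 weeks. A single sample, 8-week sample 1, stood above the other 3, and the groups overlapped. The difference was -0.46 ± 0.34, with an interval from -1.32 to 0.40 (limma adjusted p = 0.545), and without 8-week sample 1 it was -0.10. The Chgb and Cpe probe sets used here carry the array's "_f" suffix, which marks probes shared among similar sequences. So do the second Chga probe set and the second tested Ncam1 probe set.

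**Figure D1:**
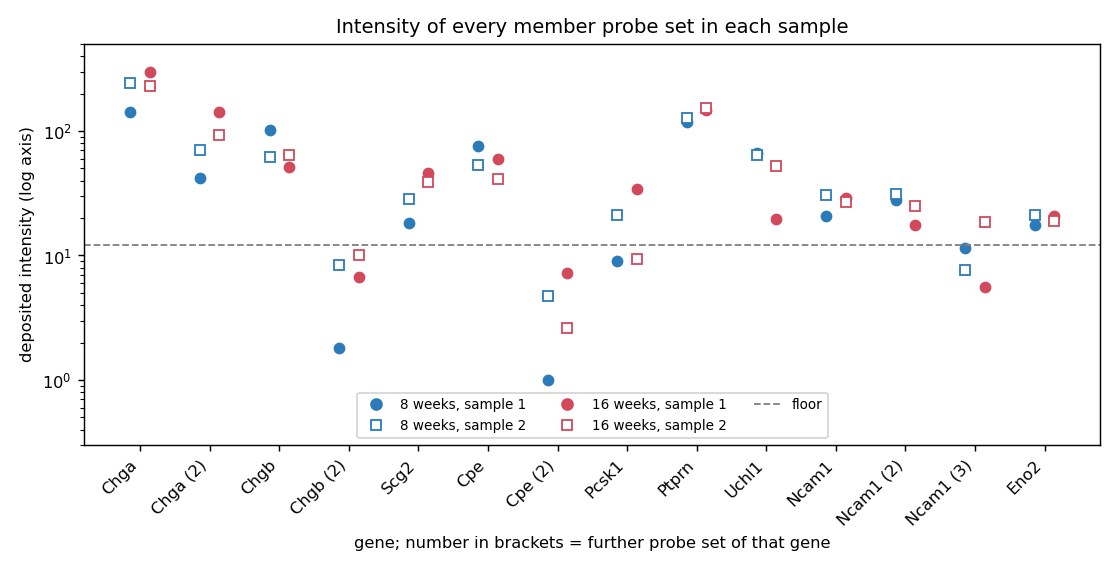
Deposited intensity (log axis) of all 14 probe sets of the 9 genes in each of the 4 samples. Blue marks 8 weeks and red 16 weeks, filled circles sample 1 and open squares sample 2, and the dashed line is the floor of 12.15. Both 16-week points of Scg2, Ptprn and the second Chga probe set lie above both 8-week points, whereas Uchl1 is low mainly in 16-week sample 1, at 19.7.

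The enzymes and membrane proteins of the granule gave smaller or less repeatable differences. Prohormone convertase 1 (Pcsk1), the protease that cuts precursors at paired basic residues, gave 9.1 and 21.1 at 8 weeks, then 33.9 and 9.4 at 16 weeks. A sample of each group lay under the floor, and the groups overlapped fully. The 16-week samples were 1.48 apart on the log2 scale, a gap that 2.83% of tested genes reached. The difference was 0.34 ± 0.58, with an interval from -1.13 to 1.82 (limma adjusted p = 0.792). It ran from -0.40 without 16-week sample 1 to 1.08 without 16-week sample 2, so its direction rested on single samples. Carboxypeptidase E (Cpe), which removes the basic residues that convertases leave, gave 75.1 and 53.5 at 8 weeks, then 60 and 41.4 at 16 weeks. The groups overlapped, and the difference of -0.35 ± 0.32 (interval -1.17 to 0.48; limma adjusted p = 0.626) became 0.079 once the arrays were aligned on the hybridisation controls.

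Ptprn, a catalytically inactive phosphatase-like protein that spans the granule membrane, had small gaps within both groups. It gave 118 and 126 at 8 weeks, then 148 and 153 at 16 weeks. The groups did not overlap, and the samples lay 0.10 apart at 8 weeks and 0.04 apart at 16 weeks on the log2 scale. The difference was small, 0.30 ± 0.23 or 1.23-fold, with an interval from -0.29 to 0.89 (limma adjusted p = 0.561). Its SE is larger than its own gaps because limma draws each probe set's spread towards that of all probe sets. With any one sample left out the difference stayed between 0.25 and 0.35. Scaling mattered more: it was 0.078 on a common array median and 0.73 when aligned on the hybridisation controls.

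Of the general markers, Uchl1 read lower at 16 weeks, Ncam1 had opposite signs on its probe sets and Eno2 lay near 0. Ubiquitin C-terminal hydrolase L1 (Uchl1), an abundant enzyme of neurons and endocrine cells, gave 66.8 and 64.4 at 8 weeks, then 19.7 and 52.1 at 16 weeks. The groups did not overlap, but only 16-week sample 1 was far from the 8-week values. The 16-week samples were 1.40 apart on the log2 scale, a gap that 3.39% of tested genes reached, while the 8-week samples were 0.05 apart. The difference was -1.03 ± 0.50, 2.05-fold, with an interval from -2.31 to 0.24 (limma adjusted p = 0.404). Leaving out 16-week sample 1 gave -0.33, and leaving out 16-week sample 2 gave -1.74. The sample with the lowest Uchl1 was the one with the highest Chga, Scg2 and Pcsk1.

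Ncam1, a neural cell adhesion molecule of neurons, endocrine cells and, in humans, some lymphocytes, gave opposite signs on its 2 tested probe sets. The brighter (100153_at) gave 20.6 and 30.7 at 8 weeks, then 29.1 and 26.7 at 16 weeks, a difference of 0.15 ± 0.29 (interval -0.61 to 0.90; limma adjusted p = 0.825) that changed sign on a common array median (-0.074). The other (161750_f_at) gave 27.9 and 31 at 8 weeks, then 17.6 and 25 at 16 weeks, a difference of -0.49 ± 0.28 (interval -1.21 to 0.24; limma adjusted p = 0.471). The groups overlapped on the first and not on the second, so the files give no single direction for this gene. Neuron-specific enolase (Eno2), the neuronal form of the glycolytic enzyme, gave 17.7 and 21 at 8 weeks, then 20.8 and 19 at 16 weeks. All 4 values lay close together and not far above the floor. Its difference was 0.04 ± 0.25, with an interval from -0.58 to 0.67 (limma adjusted p = 0.941), and its sign changed with quantile normalization (-0.16) and on a common array median (-0.18).

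**Figure D2:**
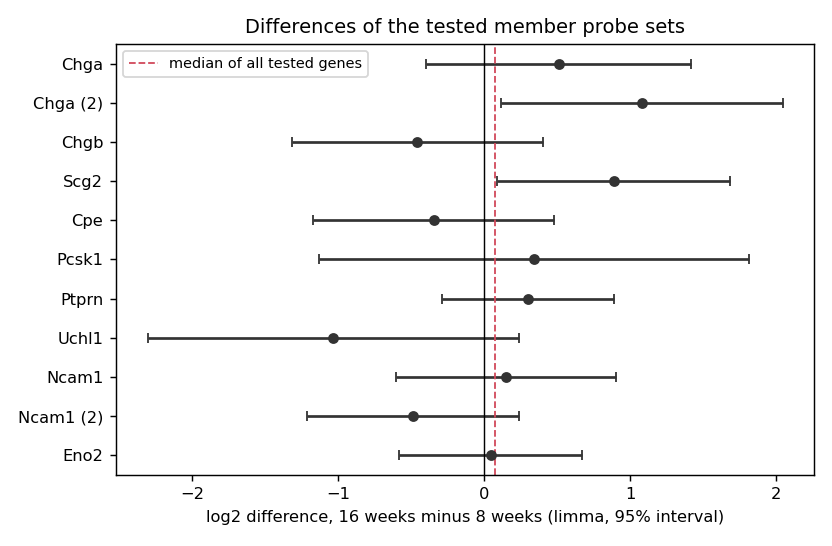
Log2 difference, 16 weeks minus 8 weeks, of the 11 tested probe sets of the 9 genes, with limma's 95% interval from 2 samples per group. The solid line is 0 and the dashed line the median of all tested genes (0.07). The intervals of Scg2 and of the second Chga probe set lie above 0 before adjustment for multiple testing, and the other 9 include 0.

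With each gene at its brightest probe set, 6 of the 9 genes were higher at 16 weeks and 3 lower, with a median of 0.15. Among all 5864 tested genes 55.3% were higher and the median was 0.07. Scg2 alone had an unadjusted p under 0.05. The background was 7.54% of tested genes higher at that level and 5.78% lower. Scg2 and Ptprn were higher without overlap between the groups, against a background of 27.5%, and Uchl1 was lower without overlap, against 21.1%. With 9 genes, such shares are near the background. Between the 8-week samples the median gap of these genes was 0.58 on the log2 scale, and 0.33 over all tested genes. At 16 weeks it was 0.32 in both. Averaged over the 9 genes, each centred on its own mean, the samples stood at -0.13 and 0.08 at 8 weeks and 0.09 and -0.04 at 16 weeks. These means overlapped between the groups. They average over genes of opposite sign: in 8-week sample 2 and 16-week sample 1, whose means were close, centred Uchl1 stood at 0.49 and -1.22.

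Direction depended on how the arrays were aligned for the genes near 0. On a common array median 4 of the 9 genes were higher, after quantile normalization 4, and aligned on the bacterial hybridisation controls 7. All tested genes shifted with them, to 40.05%, 51.4% and 80.8% higher. The common median moved the all-gene median by -0.20 and the controls moved it by 0.39. The controls, bacterial transcripts added to each hybridisation, were themselves lower at 16 weeks, with a median of -0.52 over the 14 of 18 probe sets above the floor on every array. Taken relative to the median of all tested genes, Scg2 lay between 0.73 and 0.85 under the deposited scale and these 3 scalings. A common median and the controls apply a single factor to each array. Apart from the effect of the floor, this subtraction therefore cancels their shift by construction, and only quantile normalization could move these values otherwise. On the same footing the Chga probe sets lay between 0.42 and 0.64 and between 0.99 and 1.05, Ptprn between 0.21 and 0.38, Chgb between -0.55 and -0.50, Cpe between -0.44 and -0.38, and Uchl1 between -1.13 and -1.07. Brightness also bore on the sign over the whole table. When the tested genes were divided by brightness into 4 groups of 1466, the dimmest group held Eno2 and Pcsk1, and 66.4% were higher and the median was 0.19. In the next group, with Scg2 and Ncam1, 59.7% were higher and the median was 0.16. In the one above it, with Chgb, Cpe and Uchl1, 55.9% were higher and the median was 0.069. In the brightest, with Chga and Ptprn, 39.2% were higher and the median was -0.13. The part of brightness in the members' differences was not tested.

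**Figure D3:**
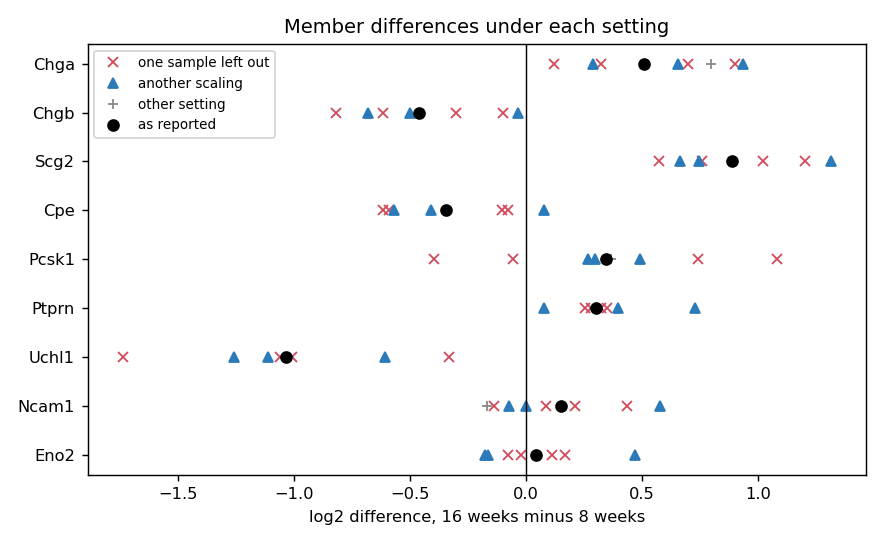
Log2 difference, 16 weeks minus 8 weeks, of each of the 9 genes as reported (black), with one sample left out (crosses), under 3 other scalings (triangles) and under other settings (plus signs). Chga, Scg2 and Ptprn stay above 0 and Chgb and Uchl1 below 0 under every setting drawn, while Cpe, Pcsk1, Ncam1 and Eno2 cross 0. For Chga, Scg2, Ptprn, Chgb and Uchl1 the plus signs fall on the reported value by construction, except the mean of the Chga probe sets.

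Other genes of granule formation and prohormone processing held both directions. Of 21 symbols listed 14 were annotated and 11 tested, of which 5 were higher and 6 lower with a median of -0.00431, and 0 passed limma's adjusted test. Pcsk7, a convertase of the constitutive secretory route, gave 42 and 47.8 at 8 weeks, then 19.5 and 13.8 at 16 weeks. Both 16-week samples were lower, by -1.45 ± 0.28 (limma adjusted p = 0.301), and Pcsk7 was the single gene of this list with an unadjusted p under 0.05. Furin, the ubiquitous convertase of the Golgi, had the opposite sign, with 733 and 1144 against 1629 and 1365 (0.70 ± 0.32; limma adjusted p = 0.389). Gnas, whose locus also encodes a granin-like protein, gave -0.61 ± 0.30. The granin-family genes outside the set were at the limit of measurement: Scg5 (7B2, which assists the convertase Pcsk2) read 18.4 and 11.5 against 19.8 and 11.3, and the brighter Scg3 probe set exceeded the floor only in 16-week sample 2, at 20.4. Pam, which amidates peptides such as gastrin, read 150 and 130 against 161 and 121 (-0.0043 ± 0.27).

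Among ECL cell and monoamine genes 3 of 8 tested were higher and 5 lower, with a median of -0.10. Histidine decarboxylase (Hdc), the defining enzyme of ECL cells, read at most 7.8 on any array, so these data hold no usable measure of it. Snap25, an exocytosis protein, gave 19.9 and 15.1 at 8 weeks, then 49.6 and 26.2 at 16 weeks (1.06 ± 0.39; limma adjusted p = 0.349). Tyrosine hydroxylase (Th), the enzyme of catecholamine synthesis, read 45.8 and 54.5 against 31.7 and 19.4 (-1.01 ± 0.33; limma adjusted p = 0.333). Gap43, a growth-associated protein of nerve fibres, read 18.8 and 18.3 at 8 weeks and lay under the floor in both 16-week samples, at least 1.53-fold lower (limma adjusted p = 0.352). It passed the filter only through the 8-week arrays, so it could only count as lower. The gastrin receptor Cckbr and ghrelin (Ghrl), the hormone of another endocrine cell of this mucosa, gave 0.49 ± 0.25 and -0.19 ± 0.38.

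Endocrine transcription factors were mostly dim. Of 12 annotated genes 8 were tested, of which 5 were higher and 3 lower with a median of 0.15. Pax4 read 32.7 and 37.4 against 25.4 and 13.7 (-0.91 ± 0.37; limma adjusted p = 0.364). Foxa2 gave -0.99 ± 0.64, from a low 16-week sample 2, and Pax6 gave 0.35 ± 0.23. Neurod1 and Neurog3, which drive endocrine differentiation, lay under the floor on every array. Of the relatives of the markers, 4 of 8 annotated genes were tested, 2 higher and 2 lower. The muscle enolase Eno3 read 35.9 and 37 against 22.1 and 30.6 (-0.49 ± 0.27; limma adjusted p = 0.458), while Alcam gave 0.20 ± 0.24 and the hydrolase Uchl5 -0.21 ± 0.35. The counts of these lists moved with the scaling too: with the arrays aligned on the hybridisation controls 7 of 11 processing genes, 6 of 8 ECL cell genes, 6 of 8 transcription factors and 3 of 4 relatives were higher, and on a common array median 4, 3, 4 and 0.

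Markers of other cell types, only some of which express the same genes, moved between the samples. Most tested transcripts of the labelled tissue were bright: Atp4a, a proton pump subunit of parietal cells, read between 4034 and 5304. Tff2 was dim, at 23.4 and 37.4 at 8 weeks, then 10.8 and 15.8 at 16 weeks. All 6 tested gastric epithelium markers were lower at 16 weeks, 4 of them without overlap, with a median of -0.43. Over all tested genes 21.1% were lower without overlap. Apart from Tff2 these markers are bright, and in the brightest group of tested genes 39.2% were higher, with a median of -0.13. The part of brightness in their differences was not tested. After quantile normalization 4 of 6 were lower, and 3 of 6 when the arrays were aligned on the hybridisation controls. Atp4b, the other pump subunit, read 1091 and 1701 against 915 and 634. The 6 genes summed to 12050 and 14127 against 11444 and 10489. Smooth muscle markers were present too, and 6 of 7 tested were lower at 16 weeks (6 or 7 under each scaling). Their summed intensity was 3349 and 2873 at 8 weeks against 1752 and 1688 at 16 weeks. Of 16 annotated enteric neuron and glia markers 8 were tested, 4 higher and 4 lower, or 6 higher when aligned on the hybridisation controls. They summed to 489 and 464 against 507 and 371, and a single Tubb3 probe set was the largest part of each sum. Of these markers 7 lay under the floor on every array, among them the neuronal genes Elavl4, Nefl and Map2. The neuronal tubulin regulator Stmn2 gave 37.7 and 48.3 at 8 weeks, then 56.1 and 48.6 at 16 weeks, highest in the sample where Uchl1 was lowest. Another tested Stmn2 probe set gave 17.5 and 17.3, then 29.1 and 28. The neurofilament Nefh gave 13.6 and 21.3, then 10.1 and 16.2, and was lowest in that sample. The neuronal tubulin Tubb3 gave 299 and 205, then 198 and 120, on its brighter probe set, and was lowest in 16-week sample 2. Its other tested probe set had the opposite direction, with 19.3 and 27.8, then 37.5 and 37.4, so Tubb3 has no single direction here. Pancreatic islet cells express the granins and convertases as well. Of 7 annotated islet markers 1 was tested, Ppy, at 50.2 and 67.2 at 8 weeks, then 71.1 and 76.1 at 16 weeks. Its other probe set gave 13 and 27.8, then 30.4 and 21.2, so both were lowest in 8-week sample 1. The brighter Ppy probe set and both tested Tubb3 probe sets carry the "_f" suffix. The islet list summed to 332 and 119 at 8 weeks against 119 and 110 at 16 weeks, since one of 2 insulin probe sets (Ins2) read 250 in 8-week sample 1 and at most 8.4 elsewhere. The other read 3 in that sample and at most 4.2 on any array. Iapp and G6pc2 were under the floor on every array. Pancreatic acinar markers were higher in 9 of 10 genes (9 or 10 under each scaling), with sums of 4255 and 1398 against 2719 and 7742. Of the antral hormones, Gast read 328 and 170 against 25.8 and 63 on the probe set used (-2.55 ± 0.55; limma adjusted p = 0.307), and Sst read 165 and 167 against 132 and 142. Together they summed to 493 and 337 against 158 and 205. Of 10 annotated T, NK and B cell markers 7 were tested. All 7 were higher (5 of 6 on a common array median), against 55.3% of all tested genes. Cd3d read 7.6 and 7 at 8 weeks, then 12.2 and 13.4 at 16 weeks. It passed the filter only through the 16-week arrays, so it could only count as higher. The list summed to 199 and 217 against 291 and 327. None of these lists had a marker that was 0 on all arrays, but this does not show presence, since markers under the floor throughout also read above 0. The part of these cell types in the differences of the granins and markers was not tested. The sample with the most gastrin signal, and with the signal of that one insulin probe set, was 8-week sample 1, which had the least Chga and Scg2 and the most Chgb and Cpe. The acinar sum was highest in 16-week sample 2 instead.

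**Figure D4:**
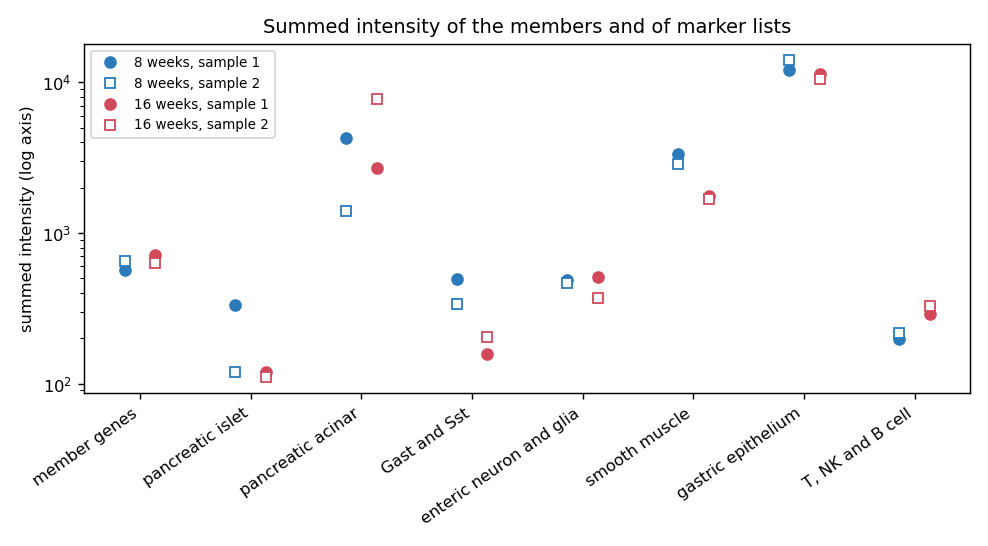
Summed deposited intensity (log axis) of the 9 member genes and of 7 marker lists, 1 probe set per gene, in each sample. Blue marks 8 weeks and red 16 weeks, filled circles sample 1 and open squares sample 2. The members sum to between 568 and 709 in all samples, and smooth muscle is lower in both 16-week samples. The islet sum is high in 8-week sample 1, at 332, through a single Ins2 probe set that read 250 there.

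The genes whose pattern over the 4 samples was closest to that of Chga were Gpr12, Cd52 and Mfn1, by root mean square distance between centred log2 values (0.0353, 0.0359 and 0.0370 among 6994 probe sets). Cd52 read 24.4 and 44.6 against 54.6 and 41.8. Closest to Uchl1 were 1190005I06Rik, Tacr2 and Cdc16 (0.0722, 0.0913 and 0.131), all low in 16-week sample 1. Tacr2, a tachykinin receptor, read 48.7 and 55.9 against 16.1 and 42.7. With 4 samples, small distances are easily reached, and nothing about function is drawn from them.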

How the data were processed

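The authors deposited one intensity per probe set and sample on a linear scale. Neither the algorithm nor any scaling between arrays is stated in the sources used here. Trimmed means of the 4 columns lay within 4.66% of their common mean, so the deposited scale was kept. Controls were left out. Of the other 12422 probe sets, 10833 carried 1 gene symbol, 396 carried several and 1193 are unnamed here. The floor (12.15) is the median over arrays of the 40th percentile. Values were floored and log2 taken. Probe sets above it on at least 2 arrays (7883, for 5864 genes) were tested with limma 3.58.1 (lmFit, eBayes; R 4.3.3), 2-sided, with Benjamini-Hochberg adjustment over all of them. A gene is represented by its brightest tested probe set. An exact 2-sided permutation test of 2 against 2 cannot go below p = 0.333. The members and gene lists were chosen with earlier results of these data known. Other named genes are up to 3 per list with the smallest p, genes on which a statement about another cell type rests, and the 3 closest in pattern to Chga and Uchl1. Scg5, Scg3, Pam, Cckbr, Ghrl, Neurod1, Neurog3, Nefh and Pcsk6 were added with their values known. Simulated data served to test the scripts. Alternatives were 3 scalings, a lower floor, no filter, averaging a gene's probe sets, each sample left out and the replicate block.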

Additional observations from a re-analysis of the deposited data

How the results depend on the processing

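The count of 0 probe sets past the threshold in either direction held under the 3 scalings, a floor at the 30th percentile, the replicate block and with any one sample left out (0 to 0). Without the filter on dim probe sets limma called 11 higher and 11 lower, none of them a member, and the cause was not tested. The members' median (0.15) was -0.074 on a common array median and 0.49 aligned on the hybridisation controls, and ran from -0.079 (without 8-week sample 1) to 0.35 (without 8-week sample 2), with -0.021 without 16-week sample 1. It was 0.15 with the replicate block, which changed no call. No pairing of samples by the numbers 1 and 2 is given in the sources used here. Over tested probe sets the differences between samples 1 and 2 of each group correlated at -0.05, which cannot settle whether there was one. Signs changed for Ncam1 after quantile normalization (-1.85e-04), on a common median (-0.074), with the mean of its probe sets (-0.17) and with a sample left out (-0.14 to 0.44). They changed for Eno2 after quantile normalization (-0.16), on a common median (-0.18) and with a sample left out (-0.079 to 0.17). They changed for Cpe with the controls aligned (0.079) and for Pcsk1 with a sample left out (-0.40 to 1.08). Chga, Chgb, Scg2, Ptprn and Uchl1 kept their sign under all 11 alternatives. The lower floor, no filter and the replicate block leave these differences unchanged by construction, so they are no check of the sign. Averaging probe sets could change only Chga among them. The sign was open to change under the 3 scalings and with a sample left out. No member passed under any alternative that kept all 4 samples.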

Other observations

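Ratios of 2 probe sets on the same array are unchanged by any single factor applied to that array, though not by quantile normalization, and only their change between samples has a meaning. These ratios were chosen after the values were seen, and have no test. The log2 ratio of Chga to Chgb was 0.48 and 1.97 at 8 weeks, then 2.54 and 1.85 at 16 weeks. That of Scg2 to Chgb was -2.46 and -1.12 at 8 weeks, then -0.15 and -0.73 at 16 weeks, without overlap, a difference of 1.35 that is about the size of the gap between the 8-week samples (1.34). The log2 ratio of Chga, on its brighter probe set, to Scg2 moved less and in the other direction. It was 2.94 and 3.09 at 8 weeks, then 2.69 and 2.58 at 16 weeks, without overlap, a difference of -0.38 with gaps of 0.15 and 0.11 within the groups. From the separate differences after quantile normalization (0.65 for Chga and 0.74 for Scg2) this shift is smaller. The second Chga probe set had a larger difference (1.08) than Scg2 (0.89), so its ratio to Scg2 rises instead. The direction of this shift therefore rests on the probe set. The lowest ratios of Chga and of Scg2 to Chgb were both in 8-week sample 1.

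The insulin signal of 8-week sample 1 came from a single Ins2 probe set (100150_f_at, 250), whereas the other Ins2 probe set (161849_r_at) read 3 there and at most 4.2 on any array. The convertase Pcsk6 had a pattern like that of Uchl1, at 67.2 and 65.2 at 8 weeks and 29.2 and 70.2 at 16 weeks, low only in 16-week sample 1.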
